A study of Homo sapiens with 12 samples.

Results

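The 9 genes described here encode histones that cells make outside DNA replication: 7 replacement core histones (H3F3A, H3F3B, H2AFZ, H2AFV, H2AFX, H2AFJ and H2AFY) and 2 linker histones (H1F0 and H1FX). They were taken by symbol from the 57773 genes of the deposited FPKM table (fragments scaled to transcript length and library size), and all 9 were found. RNA came from U87, an established human glioblastoma line, as a JQ1-resistant derivative and as the parental culture. Each line was treated for 24 h with 1000 nM JQ1, 1000 nM dBET6 or DMSO (the solvent), with 2 polyA libraries for each of the 6 groups (12 in all). The groups are thus resistant cells with JQ1, with dBET6 and with DMSO, and parental cells with JQ1, with dBET6 and with DMSO. JQ1 blocks the bromodomains of BET proteins, readers of acetylated histones, and dBET6 carries a JQ1-type ligand linked to a cereblon ligand, so that BET proteins are degraded. The labels name 1 resistant line, with no second one, and do not say whether the libraries of a group were separate cultures, so p-values measure the spread between these libraries, which may be technical.

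Most histone protein is made in S phase from clustered genes whose mRNAs end in a stem-loop without a polyA tail. Replacement histones are instead made at any time, mostly from ordinary polyadenylated mRNAs. The replacement histone H3.3 is placed by chaperones such as HIRA and DAXX where nucleosomes are lost or remodelled. H3.3 marks active genes and telomeres, H2A.Z sits beside transcription starts, H2A.X is phosphorylated around DNA breaks, macroH2A is abundant in repressed chromatin, and linker histones bind the DNA that enters and leaves a nucleosome.

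The libraries held 24732177 to 29041636 estimated counts with dBET6, against 31346557 to 40388589 in the other 8. The share of mitochondrially encoded mRNA was 3.18% to 3.93% with dBET6, against 1.46% to 2.70% elsewhere, and that of the 50 highest genes 25.7% to 30.9%, against 12.4% to 18.5%. These shares moved with dBET6, and their part in the results was not tested. Libraries of a group correlated at 0.982 to 0.994 across genes, which are not independent replicates. VIM (2908 to 11067 FPKM) and CD44 (242 to 628 FPKM) were high, whereas the glial markers GFAP (1.58 to 6.39 FPKM), OLIG2 (0 to 0.706 FPKM) and SOX2 (0 to 1.66 FPKM) were low or near 0. Among 10 markers of leukocytes, endothelium and epithelium, CD3E stayed at or below 0.101 FPKM and CDH5 at or below 0.0933 FPKM. Of the epithelial markers, EPCAM stayed at or below 0.62 FPKM and KRT18 at or below 0.0921 FPKM. KRT8, however, had 0.528 to 6.30 FPKM over the libraries, and CDH1 reached 2.96 FPKM. The highest value of the 10 was that of ITGAM, at 7.17 FPKM in 1 library.

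H3F3B was the most abundant of the 9 genes in all 6 groups, and H2AFJ or H1F0 the least abundant. Under DMSO the order of the level per length in resistant cells was H3F3B (647 ± 19.2 FPKM), H2AFZ (198 ± 11.1), H2AFV (172 ± 2.39), H2AFY (146 ± 3.96), H3F3A (75.9 ± 0.808), H1FX (43.0 ± 1.39), H2AFX (39.3 ± 0.0447), H1F0 (11.8 ± 0.253) and H2AFJ (6.16 ± 1.06 FPKM, SD, n = 2). Parental cells under DMSO had the same first 7 genes in the same order, with H2AFZ at 615 ± 68.1 FPKM close behind H3F3B at 832 ± 10.1 FPKM, and H2AFJ (18.1 ± 3.54 FPKM) above H1F0 (11.4 ± 1.67 FPKM). With dBET6, H1FX stood second in both lines, at 990.1 ± 70.5 FPKM in resistant and 1012 ± 29.3 FPKM in parental cells, where H2AFZ followed it at 510.0 ± 14.9 FPKM, and was seventh in resistant cells at 114 ± 11.1 FPKM. Neighbours in these orders overlapped between libraries in 2 places, H1FX with H3F3A in resistant cells with JQ1 and H3F3A with H2AFY in parental cells with JQ1. The FPKM scale divides by the length of the transcripts, so it allows such an order between genes. How the authors scaled it between libraries is not given in the sources used here. The place of H3F3A is uncertain. With its pseudogene copy H3F3AP4 it had 204 and 198 FPKM in the resistant DMSO libraries, where H2AFZ had 206 and 190.2 FPKM. The FPKM of H2AFY and H2AFJ includes transcripts annotated as a retained intron or as a target of nonsense-mediated decay.

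**Figure D1:**
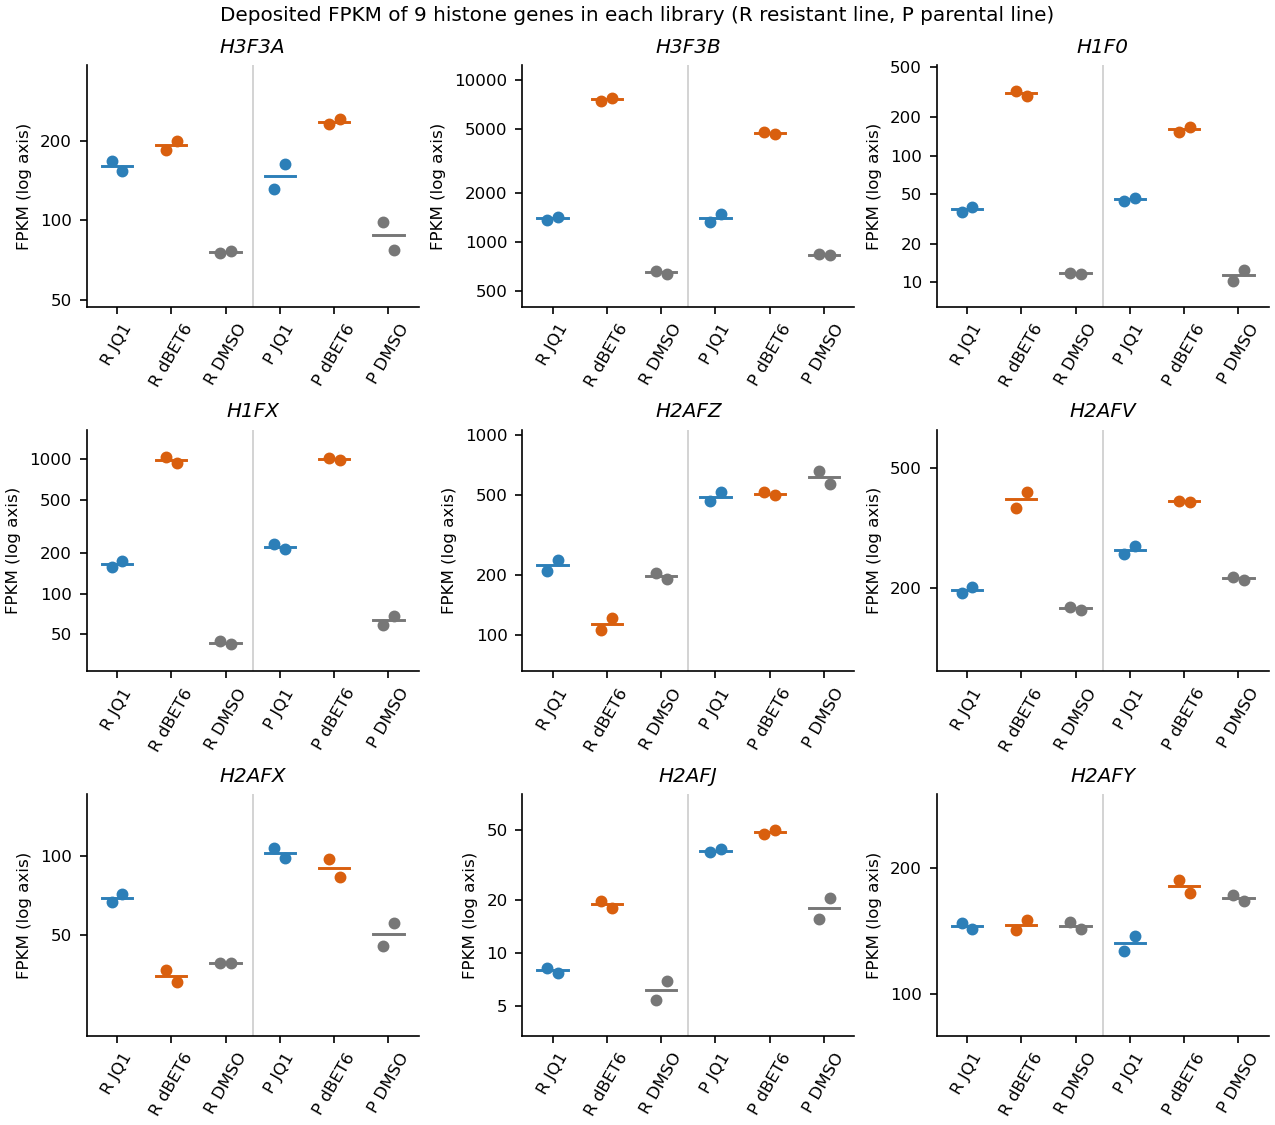
Deposited FPKM (log axis) of the 9 genes in each of the 12 libraries, with points for the libraries, bars for the mean of 2, JQ1 in blue, dBET6 in orange and DMSO in grey, and the resistant line (R) left of the parental line (P). The dBET6 points of H3F3B, H1F0 and H1FX lie above those of JQ1 and DMSO in both lines, and those of H2AFZ lie below them in the resistant line.

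Every fold change below comes from edgeR's quasi-likelihood test on gene counts in 1 fit of all 12 libraries, with Benjamini-Hochberg adjustment over the 19093 genes tested and a threshold of 0.05, and is given as log2 ± SE. All 9 genes passed the filter on low counts. With JQ1 the test called 6 of the 9 in resistant cells, all higher, and 9 in parental cells, 7 higher and 2 lower, where 43.9% and 48.9% of all genes tested were called in the 2 lines with 20.8% and 22.8% called higher and 23.1% and 26.1% lower. With dBET6 it called 8 in resistant cells, 6 higher and 2 lower, and 8 in parental cells, 7 higher and 1 lower, where 75.2% and 76.3% of all genes were called with 35.7% and 37.0% called higher and 39.5% and 39.3% lower. In this fit H3F3B, H3F3A, H1F0, H1FX and H2AFJ were called higher in all 4 comparisons, which share their DMSO libraries within a line. These values are set against the other genes of the same libraries. With library totals in place of TMM scaling the median gene lay at -0.17 for JQ1 and -1.14 for dBET6 in resistant cells, and at -0.10 and -0.65 in parental cells, and with scaling to 13 mitochondrial mRNAs at -0.56, -2.12, -0.28 and -1.78. The share of higher among all calls moved with it, for dBET6 from 47.5% under TMM to 22.5% with library totals and 8.94% with mitochondrial mRNA in resistant cells, and from 48.5% to 30.6% and 11.4% in parental cells. For JQ1 it moved from 47.4% to 28.3% and 6.67% in resistant cells and from 46.7% to 36.5% and 21.4% in parental cells. Of the members, 4 were called higher and 4 lower with dBET6 under library totals, and 3 and 5 under mitochondrial scaling, in resistant cells, and 5 and 2, and 3 and 4, in parental cells. For JQ1 these counts were 5 and 1, and 3 and 2, in resistant cells, and 6 and 2, and 5 and 2, in parental cells. H1F0, H1FX and H3F3B stayed above DMSO under all 3 scalings with both compounds, as the values beside each gene show.

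**Figure D2:**
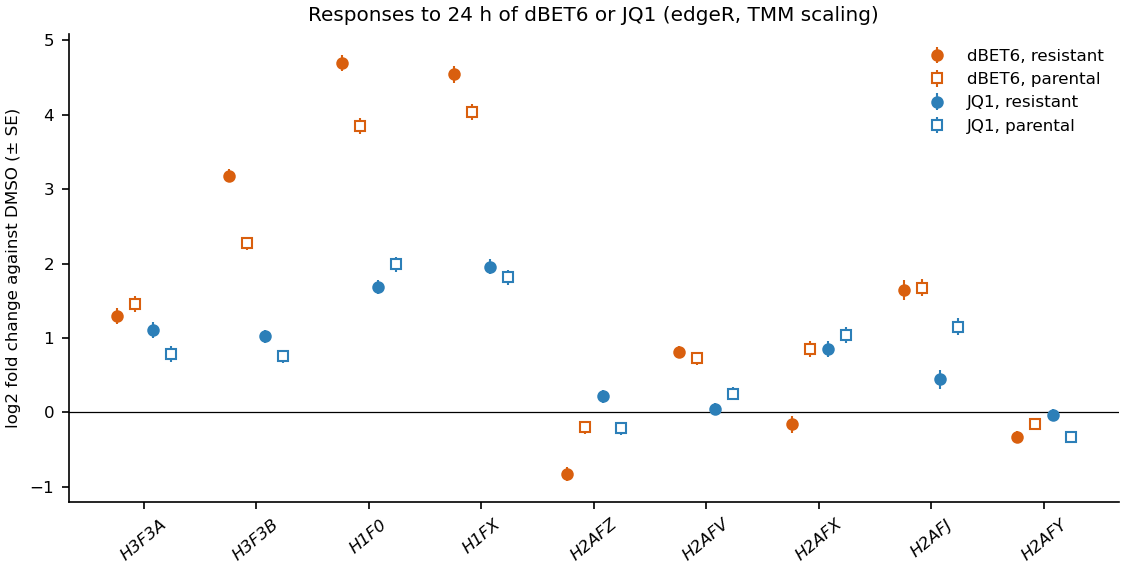
Log2 fold change against DMSO (± SE, edgeR, TMM scaling) of the 9 genes for dBET6 (orange) and JQ1 (blue), resistant cells as filled circles and parental cells as open squares. H1F0, H1FX and H3F3B hold the highest dBET6 values in both lines, and H2AFZ the lowest in resistant cells at -0.82.

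H3F3A and H3F3B encode the same protein, the replacement histone H3.3. H3F3B (ENSG00000132475) had 7475 and 7743 FPKM in the resistant dBET6 libraries and 1364 and 1429 FPKM with JQ1, against 660.5 and 633 FPKM with DMSO. The parental libraries had 4774 and 4621 FPKM with dBET6 and 1319.6 and 1482 FPKM with JQ1, against 839 and 825 FPKM with DMSO. No libraries of different treatments overlapped within a line. With dBET6 H3F3B rose 9.09-fold in resistant cells (log2 3.18 ± 0.09, adjusted p = 5.1e-21) and 4.83-fold in parental cells (2.27 ± 0.09, adjusted p = 2.64e-18). With JQ1 it rose 2.04-fold (1.03 ± 0.09, adjusted p = 1.72e-10) and 1.69-fold (0.75 ± 0.09, adjusted p = 3.24e-08). With scaling to mitochondrial mRNA its dBET6 values were 1.11 in resistant and 0.51 in parental cells, and the JQ1 values of 0.45 and 0.46 missed the threshold (adjusted p = 0.0598 and 0.058).

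H3F3A (ENSG00000163041) had 185 and 200.4 FPKM with dBET6 and 168 and 154 FPKM with JQ1 in resistant cells, against 75.4 and 76.5 FPKM with DMSO. Its parental values were 231 and 242 FPKM with dBET6 and 132 and 164 FPKM with JQ1, against 98.4 and 77.5 FPKM with DMSO. All treated libraries lay above those with DMSO in each line. H3F3A rose 2.46-fold with dBET6 (log2 1.30 ± 0.11, adjusted p = 2.32e-10) and 2.15-fold with JQ1 (1.11 ± 0.11, adjusted p = 1.69e-08) in resistant cells, and 2.74-fold (1.45 ± 0.11, adjusted p = 3.19e-11) and 1.72-fold (0.78 ± 0.11, adjusted p = 2.19e-06) in parental cells. With library totals its dBET6 value missed the threshold in resistant cells (0.22, adjusted p = 0.111) but not in parental cells (0.82). With mitochondrial scaling the dBET6 values turned to -0.77 in resistant and -0.30 in parental cells. A processed pseudogene copy, H3F3AP4, was listed at 104 to 273 FPKM, as high as H3F3A, and kallisto divides reads between such copies, so the level of H3F3A is uncertain. The 2 entries together had 387 and 454 FPKM with dBET6 and 333 and 337 FPKM with JQ1 in resistant cells, against 204 and 198 FPKM with DMSO, and 504 and 509 FPKM with dBET6 and 342 and 386 FPKM with JQ1 in parental cells, against 203 and 219 FPKM with DMSO. The order of the groups within each line was the same for the sum as for H3F3A. The pseudogene copies of H3F3B and H2AFZ stayed at or below 1.03 FPKM.

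The transcripts behind H3F3B also shifted. The longest protein-coding transcript of the gene in GENCODE, of 2705 bases, held 3.91% and 4.07% of its TPM (kallisto's abundance per transcript, corrected for length) with dBET6 and 8.0% and 8.25% with JQ1 in resistant cells, against 11.3% and 10.5% with DMSO. In parental cells it held 4.32% and 4.61% with dBET6 and 8.56% and 8.02% with JQ1, against 9.74% and 9.66% with DMSO. The libraries of each treatment were apart in both lines, with dBET6 lowest. These shares are kallisto's estimates among 13 overlapping transcripts, and 2 libraries against 2 cannot give an exact two-sided permutation p below 0.333, so they are a description. The mean effective length of the gene was 428 and 430 bases with dBET6, against 569 and 554 bases with DMSO, in resistant cells, and 425 and 462 bases against 533 and 536 bases in parental cells. With counts scaled by that length the dBET6 change of H3F3B was 3.45 in resistant and 2.45 in parental cells on the log2 scale.

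H1F0 encodes H1.0, the linker histone that builds up in cells that stop dividing and differentiate, and H1FX encodes H1X, the most divergent somatic linker histone. H1F0 (ENSG00000189060) had 322 and 297 FPKM with dBET6 and 36.1 and 39.0 FPKM with JQ1 in resistant cells, against 11.9 and 11.6 FPKM with DMSO. The parental libraries had 154 and 169 FPKM with dBET6 and 44.1 and 46.4 FPKM with JQ1, against 10.2 and 12.6 FPKM with DMSO. The dBET6 libraries lay above the JQ1 libraries, and these above the DMSO libraries, in both lines. H1F0 rose 25.9-fold with dBET6 in resistant cells (log2 4.69 ± 0.11, adjusted p = 3.14e-23) and 14.4-fold in parental cells (3.85 ± 0.10, adjusted p = 1.6e-21), and 3.21-fold (1.68 ± 0.10, adjusted p = 1.23e-13) and 3.98-fold (1.99 ± 0.10, adjusted p = 3.9e-15) with JQ1. With mitochondrial scaling the dBET6 values were 2.63 and 2.08 and the JQ1 values 1.11 and 1.69.

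H1FX (ENSG00000184897) had 1040.0 and 940.2 FPKM with dBET6 and 158 and 175 FPKM with JQ1 in resistant cells, against 44.0 and 42.0 FPKM with DMSO. Its parental values were 1032 and 991 FPKM with dBET6 and 232 and 216 FPKM with JQ1, against 58.1 and 68.6 FPKM with DMSO. The 3 treatments were apart in both lines, in the same order as for H1F0. H1FX rose 23.3-fold with dBET6 in resistant cells (log2 4.54 ± 0.11, adjusted p = 1.06e-22) and 16.4-fold in parental cells (4.04 ± 0.11, adjusted p = 1.14e-21), and 3.88-fold (1.96 ± 0.10, adjusted p = 9.3e-15) and 3.52-fold (1.81 ± 0.10, adjusted p = 2.68e-14) with JQ1. Mitochondrial scaling gave 2.47 and 2.26 for dBET6 and 1.38 and 1.5 for JQ1. The antisense gene H1FX-AS1 had 0.615 to 3.97 FPKM; the counting is not stated to use strand, so reads of the overlap cannot be assigned to one strand. Each linker histone gene has 1 transcript in the files.

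H2AFZ and H2AFV encode the nearly identical variants H2A.Z.1 and H2A.Z.2, and their RNAs moved apart with dBET6. H2AFZ (ENSG00000164032) had 106 and 121 FPKM with dBET6 and 209.7 and 238 FPKM with JQ1 in resistant cells, against 206 and 190.2 FPKM with DMSO. In parental cells it had 521 and 499 FPKM with dBET6 and 466 and 518 FPKM with JQ1, against 663 and 566 FPKM with DMSO. With dBET6 in resistant cells both libraries lay below all others of that line. There H2AFZ fell by 0.82 ± 0.09 on the log2 scale (1.77-fold, adjusted p = 6.6e-09). In parental cells the log2 changes of -0.20 ± 0.09 with dBET6 (adjusted p = 0.0445) and -0.21 ± 0.09 with JQ1 (adjusted p = 0.0492) passed narrowly and missed the threshold with median-of-ratios size factors (adjusted p = 0.47 and 0.0563), whereas library totals gave -0.83 (adjusted p = 1.11e-08) and -0.33 (adjusted p = 0.00188), and mitochondrial scaling -1.96 (adjusted p = 1.3e-20) and -0.50 (adjusted p = 0.0367). In resistant cells the H2AFZ value with dBET6 was -1.90 with library totals and -2.89 with mitochondrial scaling, and JQ1 gave 0.22 ± 0.09 (adjusted p = 0.0516). Leaving out 1 library ended the parental dBET6 call without the first dBET6 or the first DMSO library (adjusted p = 0.057 and 0.102), and the parental JQ1 call without 6 libraries, with an adjusted p up to 0.342 without the first JQ1 library.

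H2AFV (ENSG00000105968) had 369 and 418 FPKM with dBET6 and 194 and 202 FPKM with JQ1 in resistant cells, against 174 and 170.4 FPKM with DMSO. The parental libraries had 389 and 386 FPKM with dBET6 and 261 and 277 FPKM with JQ1, against 218 and 213 FPKM with DMSO. The 3 treatments did not overlap in either line. The test called it higher with dBET6 in resistant cells (log2 0.81 ± 0.08, adjusted p = 7.94e-10) and parental cells (0.73 ± 0.08, adjusted p = 7.01e-09). With library totals, however, it turned to -0.26 in resistant cells and missed the threshold in parental cells (0.09, adjusted p = 0.248). With mitochondrial mRNA it turned to -1.26 and -1.04. With JQ1 it was called higher in parental cells (0.25 ± 0.08, adjusted p = 0.0106), which turned to -0.040 with mitochondrial scaling and missed the threshold without the second JQ1 library (adjusted p = 0.0933) or the second DMSO library (0.0779). The parental JQ1 value also missed the threshold with library totals (0.14, adjusted p = 0.117). In resistant cells JQ1 gave 0.05 ± 0.08 (95% interval -0.11 to 0.22).

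H2AFX, which encodes the variant whose phosphorylated form marks DNA breaks, rose with JQ1 in both lines and with dBET6 in parental cells under TMM scaling. It (ENSG00000188486) had 37.0 and 33.3 FPKM with dBET6 and 66.9 and 71.6 FPKM with JQ1 in resistant cells, against 39.3 and 39.3 FPKM with DMSO. Its parental values were 97.4 and 82.7 FPKM with dBET6 and 107 and 97.9 FPKM with JQ1, against 45.3 and 55.6 FPKM with DMSO. Resistant cells with dBET6 thus held the lowest values of the 12 libraries, while the parental dBET6 libraries lay above DMSO. With JQ1 it rose by 0.85 ± 0.11 on the log2 scale in resistant cells (adjusted p = 4.78e-07), a call that ended with mitochondrial scaling (0.28, adjusted p = 0.253), and by 1.05 ± 0.11 in parental cells (adjusted p = 1.6e-08). With dBET6 it gave -0.16 ± 0.11 in resistant cells (adjusted p = 0.192, 95% interval -0.39 to 0.07), but H2AFX was called lower there with library totals (-1.24, adjusted p = 2.53e-09), with mitochondrial scaling (-2.23, adjusted p = 1.38e-25) and with no filter on low counts (-0.38, adjusted p = 3.54e-04). In parental cells H2AFX rose by 0.85 ± 0.11 with dBET6 (adjusted p = 1.26e-07), which missed the threshold with library totals (0.21, adjusted p = 0.0595) and turned to -0.93 with mitochondrial scaling.

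H2AFJ, which encodes H2A.J, a variant known to accumulate in senescent cells, had the lowest level of the H2A genes. It (ENSG00000246705) had 19.9 and 18 FPKM with dBET6 and 8.22 and 7.75 FPKM with JQ1 in resistant cells, against 5.41 and 6.92 FPKM with DMSO. In parental cells it had 47.4 and 49.9 FPKM with dBET6 and 37.5 and 39.0 FPKM with JQ1, against 15.6 and 20.6 FPKM with DMSO. Of the TPM of H2AFJ, 83.8% to 90.2% over the libraries fell to a 785-base transcript. GENCODE annotates it as a target of nonsense-mediated decay. The 3665-base transcript annotated as protein-coding held 9.82% to 15.6%, so these levels are mostly not of that transcript. Every parental library with a compound lay above every resistant library in the FPKM of H2AFJ. With dBET6 it rose 3.12-fold in resistant cells (log2 1.64 ± 0.13, adjusted p = 1.08e-11) and 3.19-fold in parental cells (1.67 ± 0.12, adjusted p = 4.21e-13), though with mitochondrial scaling it turned to -0.42 and -0.10. Under library totals H2AFJ kept its dBET6 calls (0.57 in resistant and 1.04 in parental cells) but missed the threshold with JQ1 in resistant cells (0.25, adjusted p = 0.17). With JQ1 it rose by 0.44 ± 0.13 in resistant cells (adjusted p = 0.00743), which ended without the second JQ1 library (adjusted p = 0.0595) or the first DMSO library (0.157) and turned to -0.13 with mitochondrial scaling, and by 1.16 ± 0.11 in parental cells (adjusted p = 2.79e-09).

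H2AFY, which encodes macroH2A1, a histone H2A fused to a macro domain, gave values that depended on the scaling and the filter. It (ENSG00000113648) had 142 and 150.3 FPKM with dBET6 and 148 and 143 FPKM with JQ1 in resistant cells, against 148 and 143 FPKM with DMSO. The parental libraries had 188 and 174 FPKM with dBET6 and 127 and 137 FPKM with JQ1, against 173 and 167 FPKM with DMSO. In parental cells the JQ1 libraries lay below and the dBET6 libraries above those with DMSO, and in resistant cells the treatments overlapped. In the counts H2AFY fell by 0.32 ± 0.08 with JQ1 in parental cells (adjusted p = 0.00153) and by 0.33 ± 0.08 with dBET6 in resistant cells (adjusted p = 6.5e-04). The other 2 values were -0.04 ± 0.08 with JQ1 in resistant cells (95% interval -0.20 to 0.13) and -0.15 ± 0.08 with dBET6 in parental cells (-0.32 to 0.02). The parental dBET6 value passed the threshold as lower in 10 of 12 fits without 1 library (-0.26 to -0.13 over the 12), with no filter (-0.30, adjusted p = 0.00395), with library totals (-0.79) and with mitochondrial scaling (-1.92), and as higher at a mean of at least 10 CPM (0.22, adjusted p = 0.00623). With JQ1 in resistant cells H2AFY was called lower with library totals (-0.23, adjusted p = 0.00742) and with mitochondrial scaling (-0.62, adjusted p = 0.0062). The fall in resistant cells with dBET6 was not seen in FPKM, where limma on log2(FPKM + 1) gave 0.00, and the effective length of the gene was 975 and 994 bases with dBET6 there, against 1253 and 1270 bases with DMSO.

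The forms of H2AFY shifted with both compounds. Mutually exclusive exons give macroH2A1.1, whose macro domain binds ADP-ribose metabolites, or macroH2A1.2, whose domain does not. Full-length coding transcripts with the 91-base exon (macroH2A1.1, 369 codons) and with the 100-base exon (macroH2A1.2, 371 or 372 codons) were separated. The macroH2A1.1 form made 40.1% and 42.2% of their TPM with dBET6 and 39.5% and 42.0% with JQ1 in resistant cells, against 21.9% and 23.4% with DMSO. Its share in parental cells was 36.7% and 36.6% with dBET6 and 52.5% and 54.7% with JQ1, against 21.6% and 20.3% with DMSO. All 8 treated libraries lay above all 4 DMSO libraries, and parental cells with JQ1 lay above all others. On the FPKM scale macroH2A1.2 had 26.7 and 30.0 with dBET6 and 35.3 and 36.9 with JQ1, against 51.0 and 46.7 with DMSO in resistant cells, and 37.4 and 31.3 with dBET6 and 24.1 and 25.1 with JQ1, against 60.4 and 49.7 with DMSO in parental cells. MacroH2A1.1 had 17.9 and 21.9 with dBET6 and 23.0 and 26.7 with JQ1, against 14.3 and 14.3 with DMSO, in resistant cells, and 21.8 and 18.1 with dBET6 and 26.7 and 30.3 with JQ1, against 16.6 and 12.6 with DMSO, in parental cells. These full-length forms held 28.4% to 44.6% of the TPM of the gene, the rest falling to other annotated transcripts. The largest single transcript in every library was one of 861 bases that GENCODE annotates as a retained intron. It held 45.8% to 48.9% of the TPM of the gene with dBET6, against 30.5% to 37.5% with JQ1 or DMSO, over both lines. The FPKM and counts of H2AFY thus include this transcript and are not levels of coding macroH2A1 RNA alone. Its part in the shorter effective length was not tested. With 2 libraries a group the shares carry no test.

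**Figure D3:**
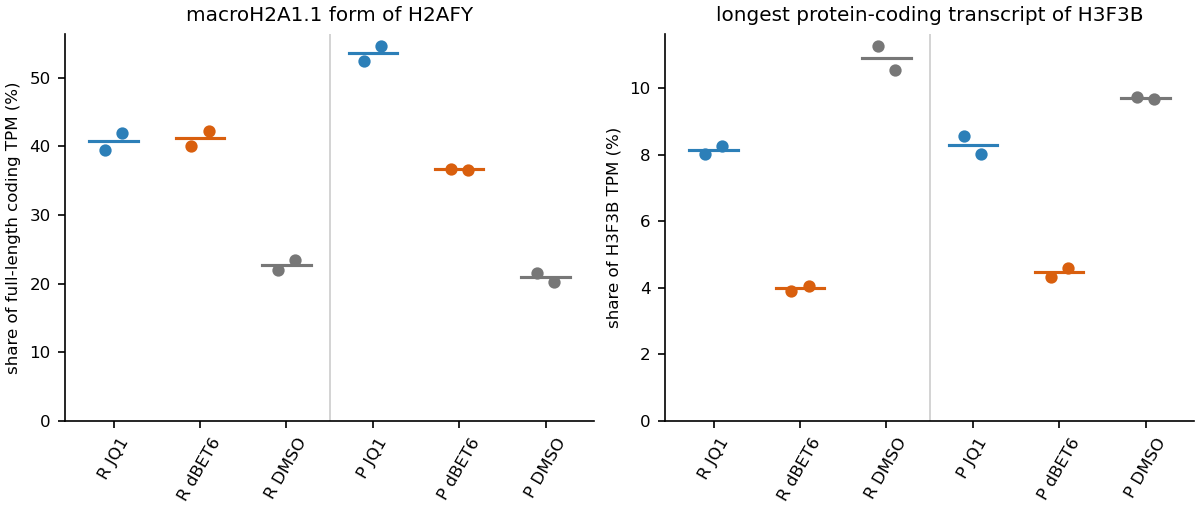
Share of macroH2A1.1 in the full-length coding TPM of H2AFY (left) and of the 2705-base transcript in the TPM of H3F3B (right), in percent, per library (points) with the mean of 2 (bars), resistant line (R) left of parental line (P). The macroH2A1.1 share lies between 36.6% and 54.7% in all treated libraries, against 20.3% to 23.4% with DMSO.

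The transcripts of H2AFX and H2AFV also shifted. The 1373-base H2AFX transcript that GENCODE annotates as a target of nonsense-mediated decay held 32.5% ± 2.85 with dBET6 and 14.1% ± 0.518 with JQ1 in resistant cells, against 26.4% ± 0.669 with DMSO (SD, n = 2), and 29.2% ± 4.88 and 14.5% ± 0.466 against 24.0% ± 2.89 in parental cells. JQ1 libraries were thus below DMSO in both lines, and dBET6 libraries overlapped DMSO in the parental line. The 3804-base H2AFV transcript held 5.13% ± 0.224 with dBET6 and 8.41% ± 0.253 with JQ1, against 11.7% ± 0.307 with DMSO, in resistant cells, and 6.25% ± 0.0773 and 7.25% ± 0.0943 against 9.19% ± 0.183 in parental cells.

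The degrader and the inhibitor were compared at the same dose and time, 1 pair of compounds in each of 2 lines, with p adjusted over all genes tested. In resistant cells dBET6 against JQ1 called 8 of the 9, 5 higher and 3 lower, where 74.2% of all genes were called, 35.4% higher and 38.8% lower. H1F0 was 8.06-fold higher with dBET6 (log2 3.01 ± 0.10, adjusted p = 1.12e-19), H1FX 6.0-fold (2.59 ± 0.10, adjusted p = 2.73e-18) and H3F3B 4.47-fold (2.16 ± 0.09, adjusted p = 7.25e-18), followed by H2AFJ (1.2 ± 0.13, adjusted p = 4.79e-09) and H2AFV (0.76 ± 0.08, adjusted p = 3.11e-09). Those lower with dBET6 than with JQ1 were H2AFX (-1.01 ± 0.11, adjusted p = 1.23e-08), H2AFZ (-1.04 ± 0.09, adjusted p = 7.36e-11) and H2AFY (-0.30 ± 0.08, adjusted p = 0.00207). For H2AFY the threshold was missed with RLE size factors (-0.10, adjusted p = 0.285) and with length-scaled counts (-0.12, adjusted p = 0.208). H3F3A gave 0.19 ± 0.11 (95% interval -0.03 to 0.41), and was called higher with RLE size factors (0.39, adjusted p = 0.00279) and with its H3F3AP4 copy added (0.25, adjusted p = 0.0122), and lower with library totals (-0.69, adjusted p = 1.05e-04). In parental cells 6 were called, all higher, where 74.6% of all genes were called, 36.2% higher and 38.4% lower. They were H1FX (2.22 ± 0.10, adjusted p = 5.61e-17), H1F0 (1.86 ± 0.10, adjusted p = 9.14e-16), H3F3B (1.52 ± 0.09, adjusted p = 8.23e-15), H3F3A (0.67 ± 0.11, adjusted p = 6.71e-06), H2AFJ (0.52 ± 0.11, adjusted p = 1.57e-04) and H2AFV (0.47 ± 0.08, adjusted p = 9.39e-06). The values that missed the threshold there were H2AFX at -0.19 (95% interval -0.41 to 0.03), H2AFY at 0.17 (0.00 to 0.34) and H2AFZ at 0.01 (-0.17 to 0.20). With mitochondrial scaling H2AFJ, H2AFV and H3F3A turned lower with dBET6 in both lines, at -0.29, -0.73 and -1.29 in resistant and -0.94, -1.0 and -0.81 in parental cells, and H1F0 and H3F3B missed the threshold in parental cells at 0.40 and 0.05. There H2AFX (-1.66), H2AFY (-1.30) and H2AFZ (-1.46) were called lower too, so that 1 member was higher and 6 were lower in parental cells, with 3 and 3 under library totals. In resistant cells 3 members were higher and 5 lower with mitochondrial scaling, and 3 and 4 with library totals.

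Without a compound, 5 of the 9 genes were lower in resistant than in parental cells and none was called higher by edgeR, at an unadjusted p under 0.05, by DESeq2 or by limma, where 38.5% of all genes were called, 17.4% higher and 21.2% lower. H2AFZ was 2.90-fold lower (log2 -1.54 ± 0.09, adjusted p = 2.18e-13) and H2AFJ 2.70-fold lower (-1.43 ± 0.13, adjusted p = 5.49e-10). Smaller were H1FX (-0.57 ± 0.10, adjusted p = 3.5e-05), H2AFX (-0.38 ± 0.11, adjusted p = 0.00671) and H3F3B (-0.28 ± 0.09, adjusted p = 0.0111). H2AFX missed the threshold without the second parental DMSO library (adjusted p = 0.193) and H3F3B without the second resistant DMSO library (adjusted p = 0.148). The other values were H1F0 at 0.06 (95% interval -0.14 to 0.27), H2AFV at -0.16 (-0.33 to 0.00), H2AFY at -0.09 (-0.25 to 0.08) and H3F3A at -0.18 (-0.40 to 0.05). With length-scaled counts H2AFV was called lower too (-0.30, adjusted p = 0.0146), and 6 members were lower there. Limma on log2 FPKM also called 6 members lower with either pseudocount.

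The response to each compound was also compared between the lines by an interaction term. For dBET6 5 of the 9 differed, 3 higher and 2 lower, where 27.9% of all genes differed, 13.7% higher and 14.2% lower. The rise was larger in resistant cells for H3F3B (difference of log2 changes 0.91 ± 0.12, adjusted p = 2.35e-06), H1F0 (0.85 ± 0.14, adjusted p = 2.8e-05) and H1FX (0.51 ± 0.14, adjusted p = 0.00587). H2AFX (-1.01 ± 0.15, adjusted p = 2.36e-05) and H2AFZ (-0.62 ± 0.13, adjusted p = 5.2e-04) were lower relative to DMSO in resistant than in parental cells. With library totals 2 members were higher and 5 lower: H1FX missed the threshold (0.07, adjusted p = 0.715), while H2AFV (-0.35, adjusted p = 0.00798), H2AFY (-0.62, adjusted p = 3.46e-05) and H3F3A (-0.60, adjusted p = 0.0127) newly passed it as lower. With mitochondrial scaling H1FX, H1F0 and H3F3B missed it at 0.21, 0.54 and 0.60, while H2AFX (-1.29) and H2AFZ (-0.93) still passed. H1FX also missed it without the second parental DMSO library (adjusted p = 0.0641). For JQ1 2 of the 9 differed, where 6.50% of all genes did, 3.62% higher and 2.88% lower. H2AFJ rose less in resistant cells (-0.71 ± 0.17, adjusted p = 0.0122), and H2AFZ differed by 0.43 ± 0.13 (adjusted p = 0.0381). Without 1 library this count lay between 0 and 4. The H2AFJ call ended without the first resistant JQ1, the second resistant DMSO or the first parental DMSO library (adjusted p = 0.0555, 0.14 and 0.0894), and the H2AFZ call without any of 5 libraries (adjusted p from 0.0797 to 0.256).

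**Figure D4:**
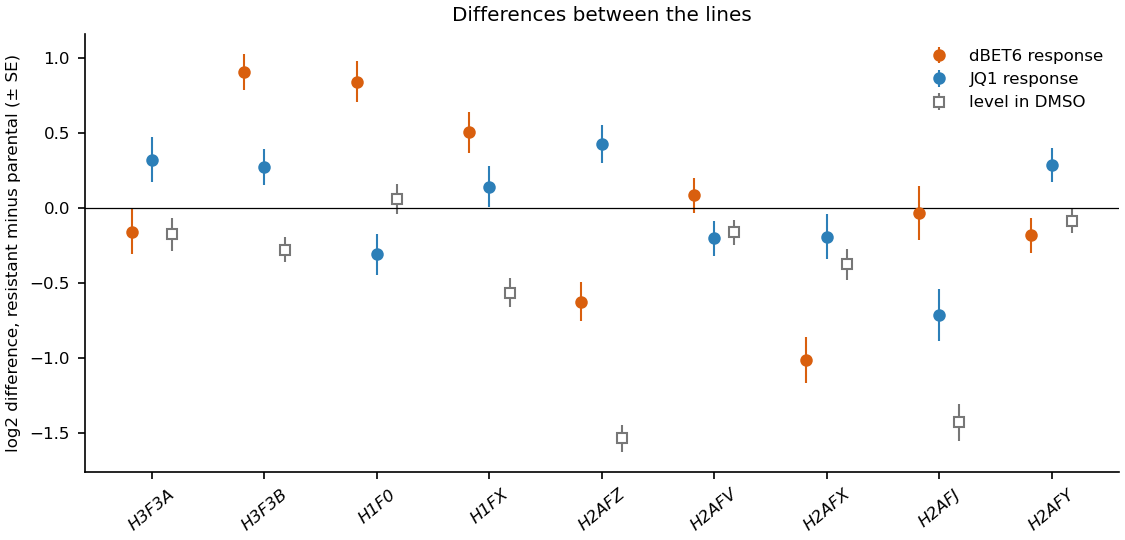
Log2 difference between the lines, resistant minus parental (± SE), for the dBET6 response (orange), the JQ1 response (blue) and the level with DMSO (grey squares). H3F3B, H1F0 and H1FX lie above 0 for dBET6, and H2AFX and H2AFZ lie below it at -1.01 and -0.62.

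The promoters are shown so that 2 genes with large rises (H3F3B and H1FX) and the 2 H2A.Z genes that moved apart (H2AFZ and H2AFV) can be set side by side. RefSeq (GRCh38.p14) windows were matched for 8 of the 9 genes, 12 in all, and H1F0 was not matched. Of each, the 250 bases before the start are considered, with capitals for CCAAT or its complement ATTGG, the box bound by NF-Y, and for TATAAA or its complement TTTATA.
H3F3B, chr17:75779780-75780029, minus strand: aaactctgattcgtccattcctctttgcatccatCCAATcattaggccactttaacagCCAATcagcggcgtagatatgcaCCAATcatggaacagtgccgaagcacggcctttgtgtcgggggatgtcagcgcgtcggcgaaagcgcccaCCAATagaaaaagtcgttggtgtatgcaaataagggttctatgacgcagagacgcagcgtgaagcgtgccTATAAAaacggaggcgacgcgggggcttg
H1FX, chr3:129316287-129316536, minus strand: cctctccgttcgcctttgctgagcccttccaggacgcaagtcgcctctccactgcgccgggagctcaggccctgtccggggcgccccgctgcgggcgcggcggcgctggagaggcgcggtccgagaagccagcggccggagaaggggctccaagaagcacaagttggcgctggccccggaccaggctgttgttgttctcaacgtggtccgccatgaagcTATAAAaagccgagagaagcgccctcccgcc
H2AFZ, chr4:99950276-99950525, minus strand: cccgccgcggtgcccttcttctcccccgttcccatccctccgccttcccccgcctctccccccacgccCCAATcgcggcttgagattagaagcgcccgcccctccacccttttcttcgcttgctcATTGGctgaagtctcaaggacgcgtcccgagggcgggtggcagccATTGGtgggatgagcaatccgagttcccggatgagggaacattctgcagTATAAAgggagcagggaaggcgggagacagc
H2AFV, chr7:44848088-44848337, minus strand: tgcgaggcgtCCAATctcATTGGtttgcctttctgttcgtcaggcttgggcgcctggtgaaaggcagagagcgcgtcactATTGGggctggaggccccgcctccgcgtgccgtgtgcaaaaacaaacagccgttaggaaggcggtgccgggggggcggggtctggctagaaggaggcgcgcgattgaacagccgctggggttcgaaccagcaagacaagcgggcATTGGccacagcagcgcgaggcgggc
Of 35116 RefSeq promoters of this length, 32.0% held CCAAT on either strand, 2.93% held it 3 or more times, and 10.7% held TATAAA. H3F3B held 4 CCAAT and 1 TATAAA, H1FX 0 and 1, H2AFZ 3 and 1, and H2AFV 4 and 0. H2AFX (chromosome 11) held 4 and 1 and H2AFJ (chromosome 12) 3 and 0. The 2 windows of H2AFY (chromosome 5) held 0 and 2 CCAAT, and the 4 windows of H3F3A (chromosome 1) held at most 1. Genes with 3 or more CCAAT thus were H3F3B, H2AFZ, H2AFV, H2AFX and H2AFJ. Among them H3F3B rose with both compounds, and H2AFZ fell with dBET6 in resistant cells. A relation between this count and the direction was not tested. These matches are letters in a window and show no binding.

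The genes whose products place, exchange, modify or process histones were read from lists, described by counts and without a test of the list. Over all genes tested, 35.7% were called higher and 39.5% lower with dBET6 in resistant cells, 37.0% and 39.3% in parental cells, 20.8% and 23.1% with JQ1 in resistant cells, and 22.8% and 26.1% in parental cells. These list counts hold under TMM scaling. The counts under the other scalings follow each list, except for the replication histones, which are given under TMM scaling only. With dBET6, 7 of 10 genes of H3.3 deposition were lower in each line, with none higher in resistant and 2 higher in parental cells, and their median log2 change was -1.51 in resistant and -1.14 in parental cells, against -0.06 and -0.01 over all genes tested. DAXX, the chaperone that works with ATRX at telomeres and repeats, gave the lowest value in parental cells (-2.97 ± 0.12, adjusted p = 4.34e-18). DEK, a chromatin protein that controls H3.3 loading, was lower in resistant (-2.58 ± 0.12, adjusted p = 2.82e-16) and parental cells (-2.69 ± 0.12, adjusted p = 1.42e-16). ASF1A, which hands H3 and H4 to HIRA, fell in resistant cells (-2.27 ± 0.15, adjusted p = 1.51e-13). UBN1, a subunit of the HIRA complex, was higher in parental cells with dBET6 (1.03 ± 0.10, adjusted p = 1.41e-09), which turned to -0.74 with mitochondrial scaling. With JQ1, 3 of the 10 were higher and 3 lower in resistant cells, and 4 and 4 in parental cells, but with library totals 0 were higher and 4 lower, and 3 and 5, and with mitochondrial scaling 0 and 7, and 0 and 4. With dBET6 the lower genes numbered 10 in resistant and 8 in parental cells with library totals, with 1 higher in parental cells, and 10 in each line with mitochondrial scaling.

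For H2A.Z exchange, 11 of 13 genes were lower and 2 higher with dBET6 in each line, with a median of -1.38 in resistant and -1.71 in parental cells. KAT5, the TIP60 acetyltransferase of an exchange complex, fell by 3.02 ± 0.13 in resistant cells (adjusted p = 2.4e-17) and fell by 3.11 ± 0.13 in parental cells (adjusted p = 6.26e-18). VPS72, an H2A.Z chaperone, fell by 2.22 ± 0.11 in resistant cells (adjusted p = 4.74e-16), and INO80, a remodelling ATPase, fell by 2.57 ± 0.10 in parental cells (adjusted p = 5.33e-18). ZNHIT1, a subunit of the SRCAP complex, rose (1.41 ± 0.09, adjusted p = 1.05e-13, and 1.02 ± 0.09, adjusted p = 1.12e-10), but turned to -0.65 and -0.76 with mitochondrial scaling. With JQ1, 1 was higher and 3 lower in resistant cells, and 2 and 5 in parental cells, against 1 and 8, and 2 and 8, with library totals and 0 and 10, and 0 and 7, with mitochondrial scaling. With dBET6, 12 were lower and 1 higher in each line with library totals, and 13 lower with mitochondrial scaling.

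Among 12 genes that phosphorylate, dephosphorylate or read H2A.X, 9 were lower with dBET6 in each line, and 1 was higher in resistant and 3 in parental cells (median -1.22 and -0.95). PPM1D, the WIP1 phosphatase, which acts on phosphorylated H2A.X, was higher by 4.27 ± 0.10 in resistant cells (adjusted p = 2.0e-23) and 3.35 ± 0.09 in parental cells (adjusted p = 2.66e-21), and stayed higher with mitochondrial scaling at 2.20 and 1.58. TP53BP1, which gathers at breaks, fell by 2.51 ± 0.10 in resistant cells (adjusted p = 1.04e-18) and 2.47 ± 0.10 in parental cells (adjusted p = 1.86e-18), and MDC1, which binds phosphorylated H2A.X, fell by 2.29 ± 0.27 (adjusted p = 4.8e-05) and 2.60 ± 0.27 (adjusted p = 2.2e-05). With JQ1, 4 were lower in each line, none was higher in resistant and 3 were higher in parental cells. With library totals 11 were lower with dBET6 in resistant and 9 in parental cells, and 6 and 5 with JQ1, and with mitochondrial scaling 11 and 11, and 10 and 4, with none higher for JQ1 under either scaling.

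In general nucleosome assembly, dBET6 gave 5 of 9 higher and 4 lower in resistant cells and 3 and 3 in parental cells under TMM scaling, but 0 higher and 8 lower in each line with library totals and 0 and 9 with mitochondrial scaling. CHAF1A, a subunit of the replication-coupled assembly factor CAF-1, fell by 2.61 ± 0.10 (adjusted p = 1.59e-18) and 1.99 ± 0.10 (adjusted p = 1.78e-16), while NPM1, nucleophosmin, was higher by 0.71 ± 0.10 (adjusted p = 1.52e-07) and 0.57 ± 0.10 (adjusted p = 5.0e-06), which turned to -0.36 and -0.06 with library totals. With JQ1, 3 were higher and 2 lower in resistant cells, and 1 and 3 in parental cells, against 1 and 5, and 0 and 4, with library totals and 0 and 5, and 0 and 3, with mitochondrial scaling. Of 6 genes for the 3′ end processing of replication histone mRNA, 6 were lower with dBET6 in resistant cells and 5 in parental cells, where SLBP, the stem-loop binding protein, was higher (0.55 ± 0.08, adjusted p = 6.97e-07) but turned to -0.09 with library totals. LSM10, of the U7 particle, fell by 2.42 ± 0.11 in parental cells (adjusted p = 2.44e-17), and NPAT, the activator of replication histone genes, by 2.08 ± 0.17 in resistant cells (adjusted p = 7.27e-12). With JQ1, 3 of the 6 were lower in resistant cells and 4 in parental cells, with none higher, against 4 and 4 with library totals and 5 and 4 with mitochondrial scaling. With dBET6 and library totals, 6 were lower in resistant and 5 in parental cells. Mitochondrial scaling gave 6 lower with dBET6 in each line, and neither scaling gave any higher.

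**Figure D5:**
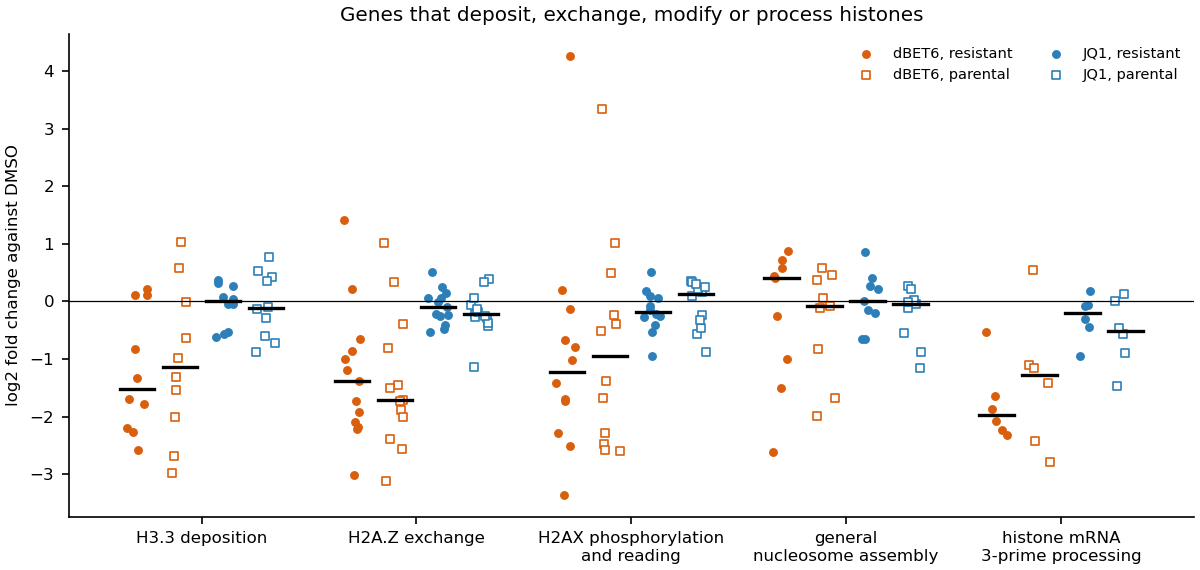
Log2 fold change against DMSO (edgeR, TMM scaling) of each tested gene of 5 lists, dBET6 in orange and JQ1 in blue, resistant cells as filled circles and parental cells as open squares, with black bars for medians. With dBET6 the median lies at -1.51 and -1.14 for H3.3 deposition and at -1.38 and -1.71 for H2A.Z exchange in resistant and parental cells.

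Of 8 other variant histone genes, 2 passed the filter on low counts. Of these, 1 was called higher and 1 lower with dBET6 in each line. Their median log2 change was 0.06 in resistant and 0.48 in parental cells. With JQ1, 1 was lower and none higher in each line. Library totals and mitochondrial scaling each left 0 higher and 1 lower with either compound in each line. CENPA, the centromeric H3, was lower in all 4 comparisons with DMSO, by -2.05 ± 0.14 (adjusted p = 1.41e-13) with dBET6 and -1.41 ± 0.11 (adjusted p = 9.06e-11) with JQ1 in resistant cells, and by -1.21 ± 0.12 (adjusted p = 3.3e-10) and -1.04 ± 0.11 (adjusted p = 8.44e-09) in parental cells. For the replication histones, 44 of 89 symbols passed the filter. Of the 89, 43 were called higher with dBET6 in resistant and 42 in parental cells, and 26 and 28 with JQ1, all under TMM scaling. A gene that passed only through its level with a compound had to differ, so these counts are a description. Most mRNAs of these genes lack a polyA tail, so polyA libraries do not measure their full level. The changes can cover only the polyadenylated part. HIST2H3C gave the largest dBET6 change (8.99 ± 0.55 and 7.32 ± 0.53), and kallisto divides reads between near-identical members of these clusters.

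Across the 6 group means of log2 CPM, which share libraries with the tests, the members most alike were H1F0 with H3F3B (Pearson r = 0.989), H1F0 with H1FX (0.982) and H1FX with H3F3B (0.975), while H2AFZ gave -0.35, -0.17 and -0.34 with H1F0, H1FX and H3F3B. Over 8462 protein-coding candidates, the closest gene was EEF1D for H3F3B (0.9997), PTMS for H1F0 (0.997), ADAM15 for H1FX (0.996), PPP6R2 for H2AFJ (0.994), GNPDA2 for H2AFZ (0.989), SERINC1 for H3F3A (0.988), SCAP for H2AFX (0.984) and SCNM1 for H2AFY (0.972). The points are 6 group means, so these are descriptions.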

How the data were processed

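PolyA RNA was sequenced from 12 libraries of U87 cells. Per the file headers, the authors deposited kallisto output for each library, with estimated counts of each transcript that were not normalized. The TPM column that the authors deposited beside them gives abundances corrected for length. A single table by the authors holds FPKM of 57773 genes, for which the submitters' processing notes name kallisto, DESeq2 and hg19. Their versions, and how they were combined, are not stated there or in the labels. No column was left without a sample (0 unmapped).

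Of the 196354 transcripts, 92.6% were paired with genes through GENCODE 29, a newer annotation, holding 95.0% to 96.3% of the counts. Estimated counts were summed per gene, rounded, kept by filterByExpr if in the FPKM table (19093 genes), scaled by TMM and tested with edgeR 4.0.16 (quasi-likelihood, robust; R 4.3.3), with a mean per group, 6 residual degrees of freedom, Benjamini-Hochberg adjustment and a threshold of 0.05. The biological coefficient of variation was 7.88%. Intervals cover 95%.

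All 9 members were named in each comparison. From each list, genes were taken by the largest change with a mean of at least 10 CPM, at most 2 per direction and compound comparison, and part of them is printed. The members and lists were chosen with earlier results of these data known. Transcripts of H2AFY were assigned to macroH2A1 forms by their coding exons. Sequences are RefSeq's. Alternatives were median-of-ratios (RLE) size factors, library totals, scaling to 13 mitochondrial mRNAs, DESeq2 1.42.0, dropping the filter on low counts (keeping genes with at least 1 count), raising it to a mean of 10 CPM, limma-trend (3.58.1) on log2 FPKM with pseudocounts 1 and 0.1 and a mean of at least 1, pseudogene copies added, a replicate block, only the libraries compared, and leaving out each library. Length-scaled counts and 2 further settings with pseudogene copies were added after seeing the data. Same-numbered libraries did not deviate together, so the numbers do not pair them. Protein was not analysed here. The gene most like H2AFV is not reported here.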

Additional observations from a re-analysis of the deposited data

Results flagged for a closer look

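Responses that differed between the lines by the interaction term (edgeR, adjusted over all genes tested) were as follows, all as resistant minus parental differences of log2 changes from 2 libraries a group. For dBET6, the rise of H3F3B was larger in resistant cells by 0.91 ± 0.12 (adjusted p = 2.35e-06), that of H1F0 by 0.85 ± 0.14 (adjusted p = 2.8e-05) and that of H1FX by 0.51 ± 0.14 (adjusted p = 0.00587). H2AFX differed by -1.01 ± 0.15 (adjusted p = 2.36e-05) and H2AFZ by -0.62 ± 0.13 (adjusted p = 5.2e-04). For JQ1, H2AFJ differed by -0.71 ± 0.17 (adjusted p = 0.0122) and H2AFZ by 0.43 ± 0.13 (adjusted p = 0.0381), so the H2AFZ difference has opposite signs for the 2 compounds, which share the DMSO libraries.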

How the results depend on the processing

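Of 2106 single values of a member in a comparison under an alternative, 1886 kept their direction and their side of the threshold, 78 changed sign, 79 missed the threshold and 63 newly passed it. Fits without 1 library gave 909 of the 1886. With mitochondrial scaling 44 values kept both, 23 changed sign, 10 missed the threshold and 4 newly passed it. With library totals these counts were 57, 8, 10 and 6. Counted in either direction, the number of members called stayed within 1.5 times its value for 7 of the 9 comparisons under every alternative run. The exceptions were the JQ1 response difference, where 2 members were called with TMM, 1 with RLE size factors or library totals, and 0 with mitochondrial scaling, length-scaled counts or limma on FPKM (pseudocounts 1 and 0.1, and with copies added), with a range of 0 to 4 without 1 library, and the dBET6 response difference, where 5 were called with TMM and 2 with mitochondrial scaling. These counts do not show direction. For dBET6 against JQ1 in parental cells, 6 higher and 0 lower with TMM became 1 higher and 6 lower with mitochondrial scaling. For dBET6 against DMSO in resistant cells, 6 higher and 2 lower became 3 higher and 5 lower. The cause was not tested.

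With mitochondrial scaling the following turned round. Against DMSO these were, for JQ1 in resistant cells, H2AFJ (-0.13), H2AFV (-0.53) and H2AFZ (-0.36), for dBET6 in resistant cells H2AFJ (-0.42), H2AFV (-1.26) and H3F3A (-0.77), for JQ1 in parental cells H2AFV (-0.040), and for dBET6 in parental cells H2AFJ (-0.10), H2AFV (-1.04), H2AFX (-0.93) and H3F3A (-0.30). For dBET6 against JQ1 they were H2AFJ (-0.29), H2AFV (-0.73) and H3F3A (-1.29) in resistant cells, and H2AFJ (-0.94), H2AFV (-1.0), H2AFY (-1.30), H2AFZ (-1.46) and H3F3A (-0.81) in parental cells. Between the lines they were H1F0 with DMSO (-0.19), H1FX (-0.12) and H3F3B (-0.019) for the JQ1 response and H2AFV (-0.22) for the dBET6 response. With library totals, H2AFV turned round for JQ1 (-0.14) and dBET6 (-0.26) against DMSO in resistant cells, for dBET6 against JQ1 in resistant (-0.12) and parental cells (-0.045) and for the dBET6 response difference (-0.35), as did H3F3A (-0.69) for dBET6 against JQ1 in resistant cells, and H2AFY (-0.35) and H2AFZ (-0.50) in parental cells.

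With a mean of at least 10 CPM (8853 genes tested), dBET6 gave H2AFX (0.24) and H2AFY (0.065) above DMSO in resistant cells, H2AFY (0.22) and H2AFZ (0.17) above DMSO in parental cells, H2AFY (0.11) above JQ1 in resistant cells and H2AFX (0.13) above JQ1 in parental cells. On FPKM with a pseudocount of 1, H2AFY turned to 0.091 for dBET6 in parental cells, 0.0041 in resistant cells and 0.0077 against JQ1 there, and the dBET6 response difference of H2AFJ to 0.093. The pseudocount of 0.1 gave 0.092, 0.0041 and 0.0077 for H2AFY and 0.18 for H2AFJ, and the copies added gave the same values as the pseudocount of 1 and -0.049 for the JQ1 response difference of H3F3A, which was -0.075 in counts with all copies. Length-scaled counts turned H2AFY to 0.040 for dBET6 in parental and 0.012 for JQ1 in resistant cells, H2AFZ to -0.025 for dBET6 against JQ1 in parental cells and the dBET6 response difference of H2AFJ to 0.14. RLE size factors and DESeq2 turned H2AFX to 0.021 for dBET6 in resistant cells and the dBET6 response difference of H2AFJ to 0.023 and 0.022. No filter turned H2AFZ (-0.12) in parental and H3F3A (-0.020) in resistant cells for dBET6 against JQ1. Without 1 library, values that changed sign ranged from -0.11 to 0.043 for H2AFZ (dBET6 against JQ1, parental cells), from -0.094 to 0.22 for H1F0 (lines with DMSO), from -0.24 to 0.16 for H2AFJ and from -0.33 to 0.0086 for H3F3A (dBET6 response difference).

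Same-numbered libraries of different groups deviated with correlations of -0.06 to 0.06 over 15 pairs of groups, 0 above 0.1, so the numbers are no pairing. The replicate block left the number of members called at 8 for JQ1 against DMSO in parental cells, where 9 were called without it, since H2AFZ missed the threshold (-0.21, adjusted p = 0.05179), and changed no other call of a member.

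Among all genes, the JQ1 response difference called 1241 with edgeR and 301 with limma on log2(FPKM + 1), and the lines with DMSO 7357 and 4017. With 2 libraries a group, the small changes of H2AFZ in parental cells rest on single libraries and on the scaling, while the fall of H2AFY with JQ1 there (-0.35 to -0.31 without 1 library) kept its call under library totals, mitochondrial scaling and length-scaled counts. Abundance per cell was not measured, so a change in all RNA of a cell cannot be told apart from the scaling, and fewer cells of a kind and less RNA per cell cannot be told apart either.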
